A study of Mus musculus with 6 samples.

Results

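The 7 genes described here encode 5 ligands of the tumour necrosis factor (TNF) family, Tnf, Tnfsf9, Tnfsf12, Tnfsf13 and Tnfsf13b, and both TNF receptors, Tnfrsf1a and Tnfrsf1b. They were chosen by gene name from the 55401 genes of the deposited expression table, and each name matched 1 gene. RNA was sequenced from mouse bone marrow-derived macrophages, the adherent cells that grow out of bone marrow under M-CSF, the macrophage growth factor. The 3 libraries labelled as a Lamtor5 knockdown were compared with 3 wild-type (WT) libraries, and all 6 cultures had been induced with M-CSF. The protein HBXIP, encoded by Lamtor5, belongs to the Ragulator complex on the lysosome surface. The series text writes the mutant mice as HBXIPΔLysM, a notation commonly used for loss driven by Cre under the lysozyme promoter LysM, active in myeloid cells. The labels give no age, no strain and no stimulus besides M-CSF. They also leave out whether each library had its own mouse, so a p-value here reflects library-to-library spread that may be technical.

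TNF family ligands are mostly made as trimeric proteins anchored in the cell membrane, and several are cut off to act at a distance. TNF itself is the classical alarm cytokine of macrophages. It binds TNF receptor 1 (Tnfrsf1a), which carries a death domain and can signal either to NF-kB or to cell death, and TNF receptor 2 (Tnfrsf1b), which lacks a death domain and is found mainly on blood and endothelial cells. Tnfsf9 encodes 4-1BBL, a co-stimulator of T cells through 4-1BB. Tnfsf12 encodes TWEAK, the ligand of Fn14. Tnfsf13 encodes APRIL and Tnfsf13b encodes BAFF, both survival factors for B cells and plasma cells.

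Depth per library was 26.0 to 28.0 M (1e6) read pairs, or 75.8 to 83.2 M when estimated counts were added up. Levels are given as FPKM (fragments per kilobase of transcript, scaled to library size), which corrects for gene length. Lamtor5 was at 24.8 to 27.1 FPKM in the knockdown and at 54.5 to 56.2 FPKM in WT, so the targeted gene matched its labels. Knockdown replicate 3 stood apart in Lyz2, the gene whose promoter is LysM, with 73.6 FPKM against 11356 and 10650 FPKM in knockdown replicates 1 and 2 and 22454 to 29379 FPKM in WT. Values without this library are given for Tnf, Tnfrsf1a, Tnfsf9, Tnfsf13, the summed Tnfsf12 and Tnfsf13 locus, Tnfsf4 and Adam17.

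All 7 genes passed the filter on low counts. Tnf and Tnfrsf1a fell in the knockdown, and none of the 7 rose. These 2 of 7 genes compare with 11.3% of all 18164 tested genes called in either direction and 6.46% called lower by edgeR's quasi-likelihood test (Benjamini-Hochberg adjusted p under 0.05). The median log2 fold change of the 7 genes was -0.29, beside 0.02 over all tested genes. In 4 of the 7 genes, Tnf, Tnfrsf1a, Tnfsf9 and Tnfsf12, the FPKM values of the groups did not overlap, beside 37.6% of all tested genes. Leaving out WT replicate 2 left 0 genes called by edgeR in the whole table (4065 at an unadjusted p under 0.05), 2247 by DESeq2 and 0 by limma (2985 at an unadjusted p under 0.05), so every edgeR call below depends on that library.

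**Figure D1:**
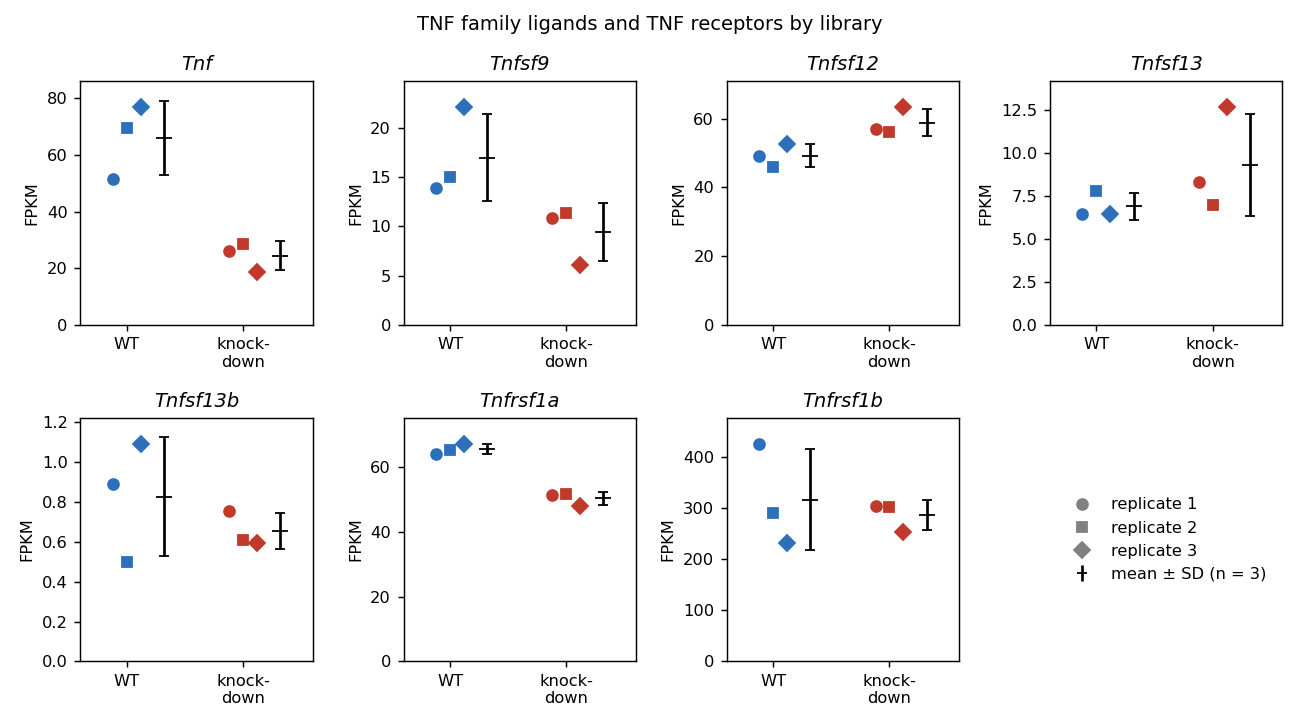
FPKM of each ligand and receptor gene in the 3 WT (blue) and 3 knockdown (red) libraries, with circles, squares and diamonds for replicates 1 to 3 and black bars for mean ± SD; each panel has its own axis from 0. Tnf, Tnfsf9 and Tnfrsf1a lay lower in every knockdown library than in any WT library, Tnfsf12 lay higher, and Tnfsf13, Tnfsf13b and Tnfrsf1b overlapped.

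Tnf showed the largest difference of the 7 genes. Tnf (ENSMUSG00000024401; GRCm38 chromosome 17, 35199381 to 35202007, minus strand; 4 exons in its annotated transcript; no overlapping gene in GENCODE M21) was at 26.1, 28.6 and 18.7 FPKM in knockdown replicates 1 to 3 and at 51.6, 69.6 and 76.9 FPKM in WT replicates 1 to 3. The groups were far apart, and knockdown replicate 3 was the lowest of all. The mean fell from 66.0 ± 13 to 24.5 ± 5.13 FPKM (mean ± SD, n = 3), that is to 37.0% of the WT level. The log2 fold change was -1.38 (SE 0.190, 95% interval -1.84 to -0.93, edgeR adjusted p = 0.0128). It was -1.23 without knockdown replicate 3 (adjusted p = 0.0288) and -1.36 without WT replicate 2, where the adjusted p was 0.0652 by edgeR and 7.07e-06 by DESeq2. Bulk RNA cannot tell fewer Tnf-expressing cells from less Tnf RNA per cell.

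The promoter and the mRNA tail of Tnf are shown because its transcript level differed most. The 250 bases before the RefSeq start of Tnf (GRCm38.p6, chr17:35202008-35202257, minus strand) are printed 5′ to 3′, with the TATAAA motif in capitals.
Tnf promoter: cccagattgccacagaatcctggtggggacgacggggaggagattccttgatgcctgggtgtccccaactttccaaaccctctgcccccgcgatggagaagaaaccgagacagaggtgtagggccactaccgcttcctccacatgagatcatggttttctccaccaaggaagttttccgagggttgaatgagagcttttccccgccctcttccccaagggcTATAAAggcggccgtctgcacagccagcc
The TATAAA motif stood 29 to 24 bases before the start. It was found on either strand in 12.4% of the 32817 promoter windows of the same length in the RefSeq table. The kappaB consensus, the AP-1 motif TGANTCA, the cyclic AMP response element TGACGTCA and the E-box CACGTG were searched on both strands as well, and none matched in this window. They were found in 3.90%, 6.75%, 1.55% and 6.02% of all windows. Only matches to these patterns within 250 bases were sought. Variant sites and sites further upstream would be missed, so the lack of a match does not show that a site is absent.

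The Tnf mRNA carries a dense AU-rich element in its 3′ untranslated region, the kind of element that the RNA-binding protein TTP (Zfp36) recognises and that shortens the life of an mRNA. The nonamer TTATTTATT occurred 5 times and the pentamer ATTTA 8 times in the 764 bases after the stop codon of the annotated transcript (overlapping matches counted). The nonamer was present in 6.63% of 13616 tested genes with a 3′ untranslated region in GENCODE M21. Of the other 6 genes, Tnfsf13b alone held it, once in 3631 bases. The 30 bases of each mRNA that hold the nonamer are printed as DNA, 5′ to 3′, with the nonamers in capitals (GRCm38, chr17:35199678-35199707, minus strand, and chr8:10037084-10037113, plus strand).
Tnf: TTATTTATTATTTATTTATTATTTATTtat
Tnfsf13b: TTATTTATTgaattgtttggtttatcagca
In Tnf 4 overlapping nonamers filled almost the whole stretch, whereas Tnfsf13b had a single one. A match describes the sequence and does not show that a protein was bound.

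Among the other 4 ligands no gene passed the test. Tnfsf9 (4-1BBL; ENSMUSG00000035678; chromosome 17, 57105325 to 57107757, plus strand, overlapping the non-coding gene Gm11110 on the other strand) was at 10.8, 11.4 and 6.04 FPKM in the knockdown and at 13.9, 15.0 and 22.1 FPKM in WT. The groups did not overlap, but knockdown replicate 3 and WT replicate 3 lay far from the other libraries of their groups. The means were 9.41 ± 2.93 and 17.0 ± 4.47 FPKM (n = 3), with a log2 fold change of -0.81 (SE 0.275, 95% interval -1.46 to -0.15, adjusted p = 0.104). DESeq2 gave an adjusted p of 0.0215 for Tnfsf9, and 0.0591 without WT replicate 2. Without knockdown replicate 3 the log2 fold change was -0.57 in edgeR.

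The TWEAK and APRIL genes had higher means in the knockdown than in WT, without passing the test. Tnfsf12 (ENSMUSG00000097328; chromosome 11, 69686250 to 69695849, minus strand; 7 exons) was at 57.0, 56.0 and 63.3 FPKM in the knockdown and at 49.0, 45.9 and 52.6 FPKM in WT. All knockdown libraries lay above all WT libraries by a small margin. The means were 58.8 ± 3.96 and 49.2 ± 3.34 FPKM, and the log2 fold change of 0.31 (SE 0.095, 95% interval 0.08 to 0.53) had an adjusted p of 0.0835. Tnfsf13 (ENSMUSG00000089669; chromosome 11, 69682846 to 69685784, minus strand; 6 exons) was at 8.32, 6.99 and 12.7 FPKM in the knockdown and at 6.47, 7.80 and 6.43 FPKM in WT. The groups overlapped, and knockdown replicate 3 was the one library well above the rest. The log2 fold change of Tnfsf13 was 0.49 (95% interval -0.08 to 1.06, adjusted p = 0.219), and 0.20 without knockdown replicate 3.

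These values are uncertain for single genes, because Tnfsf12 and Tnfsf13 lie next to each other and another gene, Tnfsfm13, spans both on the same strand (chromosome 11, 69682577 to 69696098). Tnfsfm13 encodes the read-through transcript that joins TWEAK and APRIL. An antisense gene, Tnfsf13os, overlaps all 3, and whether counting used strand is not given in the sources used here. Tnfsfm13 was at 34.1, 34.0 and 34.1 FPKM in the knockdown and at 23.2, 24.1 and 26.7 FPKM in WT. It rose by 0.52 on the log2 scale (SE 0.079, adjusted p = 0.0152), and its highest adjusted p with 1 library left out was 0.0785. Tnfsf13os was at 1.37 to 2.51 FPKM in the knockdown and at 2.35 to 2.96 FPKM in WT (adjusted p = 0.342). Tnfsfm13 and Tnfsf13os were added after their values were seen, since they overlap the 2 ligand genes.

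When the estimated counts of Tnfsf12, Tnfsf13 and Tnfsfm13 were summed into 1 value, the locus stood at 203 ± 11.3 counts per 1e6 (CPM) in the knockdown and 158 ± 8.44 in WT (n = 3). The summed value rose, with a log2 fold change of 0.41 (SE 0.086, 95% interval 0.20 to 0.61, adjusted p = 0.0307). This call was kept without knockdown replicate 2 (adjusted p = 0.0441). It was lost without any other single library, with adjusted p from 0.0560 without WT replicate 1 to 0.134 without WT replicate 2. It was 0.35 without knockdown replicate 3 (adjusted p = 0.0778). Tnfsf12 made up 49.0 to 49.7% of the summed counts in the knockdown and 51.0 to 54.3% in WT, and Tnfsfm13 39.5 to 44.1% and 37.9 to 39.8%.

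**Figure D2:**
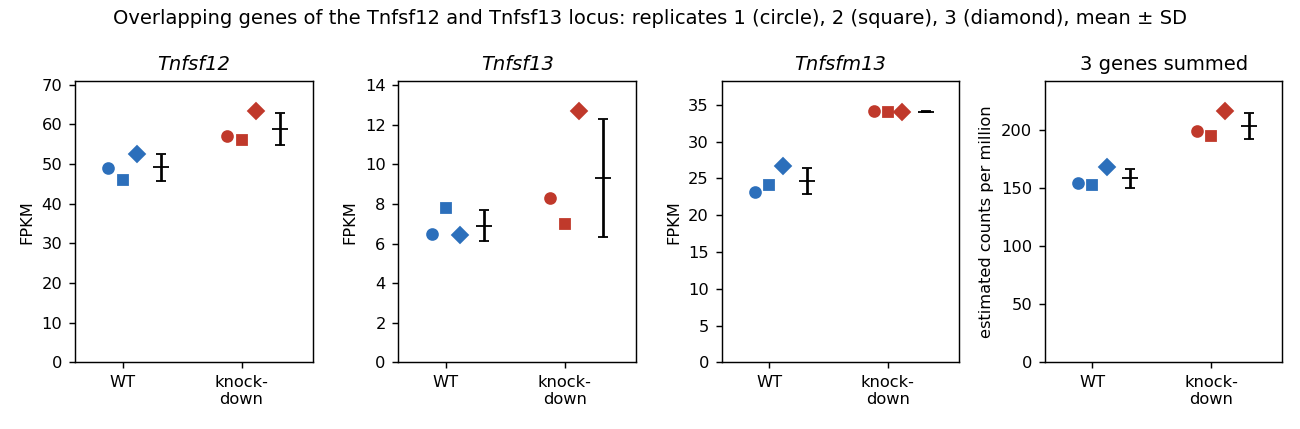
FPKM of Tnfsf12, Tnfsf13 and the read-through gene Tnfsfm13, and the CPM of the 3 genes summed, in 3 WT (blue) and 3 knockdown (red) libraries, with mean ± SD. The knockdown libraries lie above the WT libraries for Tnfsf12 and Tnfsfm13 and for the sum, while Tnfsf13 overlaps.

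Tnfsf13b was the weakest of the 7 genes. Tnfsf13b (BAFF; ENSMUSG00000031497; chromosome 8, 10006467 to 10039072, plus strand) was at 0.755, 0.608 and 0.595 FPKM in the knockdown and at 0.889, 0.500 and 1.09 FPKM in WT, from 323 to 699 estimated counts per library. WT replicate 2 was the lowest of all 6 libraries and WT replicate 3 the highest, so the spread within WT covered the knockdown. The log2 fold change was -0.29 (95% interval -1.0 to 0.42, adjusted p = 0.565), which leaves room for a change of either sign.

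Of the receptors, Tnfrsf1a passed the test and Tnfrsf1b did not, and their ratio below did not separate the groups. Tnfrsf1a (TNF receptor 1; ENSMUSG00000030341; chromosome 6, 125349362 to 125361874 in the deposited table, plus strand; 10 exons) was at 51.4, 51.8 and 47.9 FPKM in the knockdown and at 64.0, 65.4 and 67.2 FPKM in WT. Libraries of a group lay close together, and the groups were well apart. The mean fell from 65.6 ± 1.6 to 50.4 ± 2.12 FPKM (n = 3), to 76.8% of the WT level, with a log2 fold change of -0.33 (SE 0.066, 95% interval -0.49 to -0.17, edgeR adjusted p = 0.0271). The size stayed between -0.36 and -0.31 with 1 library left out, but among these edgeR fits the call was kept only without WT replicate 1. DESeq2 without WT replicate 2 called Tnfrsf1a (adjusted p = 0.0360). In edgeR the adjusted p was 0.0652 and 0.0810 without knockdown replicates 1 and 2, 0.0758 without knockdown replicate 3, 0.104 without WT replicate 2 and 0.0757 without WT replicate 3.

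Tnfrsf1b (TNF receptor 2; ENSMUSG00000028599; chromosome 4, 145213463 to 145246870, minus strand; 10 exons) had the highest level of the 7 genes. It was at 304, 303 and 253 FPKM in the knockdown and at 425, 291 and 232 FPKM in WT. The WT libraries alone spanned a wider range than the knockdown libraries and enclosed them. The log2 fold change was -0.10 (SE 0.228, 95% interval -0.64 to 0.44, adjusted p = 0.813), and it was 0.19 without WT replicate 1, the highest library.

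The ratio of Tnfrsf1a to Tnf within each library compares the 2 genes that fell. The Tnfrsf1a level was 1.97, 1.81 and 2.56 times the Tnf level in the knockdown and 1.24, 0.94 and 0.87 times in WT. Every knockdown ratio exceeded every WT ratio, with an exact p of 0.1 by two-sided permutation, below which 2 groups of 3 cannot go. The Tnf to Tnfsf9 ratio was 2.41, 2.51 and 3.10 in the knockdown and 3.72, 4.64 and 3.48 in WT and did not overlap either (exact permutation p = 0.1). In all 5 ratios were computed. Tnfrsf1b to Tnf did not overlap (10.6 to 13.5 in the knockdown and 3.01 to 8.23 in WT, exact permutation p = 0.1). Tnfrsf1b to Tnfrsf1a overlapped (5.28 to 5.93 and 3.45 to 6.64, exact permutation p = 0.4), and so did Tnfsf12 to Tnfsf13 (4.99 to 8.01 and 5.89 to 8.18, exact permutation p = 0.6). Adjusted over the 5 ratios by Benjamini-Hochberg, the exact permutation p was 0.167 for each of the 3 that separated the groups. Because of the floor at 0.1, no ratio could have passed the threshold used for single genes, so this test decides nothing. All 3 ratios that separated the groups contain Tnf. They use the same Tnf values as the call above and are not a separate result.

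The RefSeq start of Tnfrsf1a has no TATAAA motif before it, in contrast to that of Tnf. Its 250 bases (GRCm38.p6, chr6:125349473-125349722, plus strand) are printed 5′ to 3′ for comparison, as the other gene that passed the test. They hold no match to the 5 motifs searched, a search that would again miss variant sites. They lie inside the gene as annotated in GENCODE M21, which starts further upstream, at 125349362. Sequence before that start was not searched, so the contrast with Tnf holds for the RefSeq start only.
Tnfrsf1a promoter: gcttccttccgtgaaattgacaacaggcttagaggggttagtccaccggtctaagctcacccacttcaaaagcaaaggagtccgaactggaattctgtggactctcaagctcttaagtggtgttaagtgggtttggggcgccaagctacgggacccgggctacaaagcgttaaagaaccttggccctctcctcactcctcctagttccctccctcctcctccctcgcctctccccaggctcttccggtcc
Of the 7 genes, 5 matched the RefSeq promoter table. The AP-1 motif was found in 1 window each of Tnfsf13 and Tnfsf13b, and no motif in that of Tnfrsf1b. Both windows with the AP-1 motif run into the gene as annotated in GENCODE M21.

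By mean FPKM over the 6 libraries the order was Tnfrsf1b (301 FPKM), Tnfrsf1a (58.0), Tnfsf12 (54.0), Tnf (45.3), Tnfsf9 (13.2), Tnfsf13 (8.12) and Tnfsf13b (0.740). Tnfrsf1b lay above 99.3% of tested genes and Tnfsf13b above 33.0%. In WT the Tnf and Tnfrsf1a levels overlapped (51.6 to 76.9 and 64.0 to 67.2 FPKM), so these neighbours did not differ beyond their spread. Tnf and Tnfsf12 (45.9 to 52.6 FPKM) overlapped in WT as well. In the knockdown Tnf lay below both Tnfrsf1a and Tnfsf12 in every library. The levels of Tnfsf9 and Tnfsf13 overlapped in the knockdown (6.04 to 11.4 and 6.99 to 12.7 FPKM) but not in WT.

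The genes whose profile over the 6 libraries was most like that of Tnf were Psrc1, Poc1a, Ifitm3 and Rgs14. Likeness was the root mean square difference of log2 CPM, each gene centred on its own mean, among 11485 other genes with a mean of at least 1 FPKM. It was 0.054 for Psrc1, 0.078 for Poc1a, 0.088 for Ifitm3 and 0.091 for Rgs14. Psrc1 and Poc1a encode a spindle protein and a centriole protein, Ifitm3 an interferon-induced membrane protein and Rgs14 a regulator of G protein signalling. Their log2 fold changes were -1.35, -1.36, -1.40 and -1.31. For Tnfrsf1a the nearest genes were Mtmr6 (0.019), Kat6a (0.021), Hnrnpul2 (0.026) and Rab5if (0.027), with log2 fold changes from -0.34 to -0.31. With 6 libraries in 2 groups, likeness mostly reflects the difference between the groups.

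The rest of the TNF superfamily was measured in the same fit. Of 13 other ligand genes 8 were tested and none passed edgeR's test. At an unadjusted p under 0.05 there were 2, Ltb and Tnfsf4, while DESeq2 called 1 lower and limma none. None reached a mean of 5 FPKM in either group, 9 of the 13 had means under 1 FPKM in both groups, and 2 (Cd40lg and Cd70) had no count in any library. Of the 8 tested genes 6 had a log2 fold change below 0, beside 8806 of all 18164 tested genes. Ltb and Lta lie on either side of Tnf on chromosome 17. Ltb, which encodes lymphotoxin beta, was at 0.471, 0.713 and 0.327 FPKM in the knockdown and at 0.987, 1.34 and 0.697 FPKM in WT (log2 fold change -0.95, adjusted p = 0.150). Tnfsf4, which encodes OX40L, was at 0.896 to 3.25 FPKM in the knockdown and at 4.10 to 5.02 FPKM in WT (log2 fold change -1.12, adjusted p = 0.123), and its change was -0.76 without knockdown replicate 3, the lowest library (adjusted p = 0.118).

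Of 26 other receptor genes 21 were tested, of which 1 rose and 1 fell. That is 9.52% called, no more than the 11.3% of all tested genes. The number depended on the method. DESeq2 and edgeR on counts divided by 4 each called 3 higher and 1 lower. Limma on log2(FPKM + 1) called 2 higher and 1 lower, or 1 and 0 without its filter. With 1 library left out, edgeR called 0 to 1 in each direction. No count was found in any library for 3 of the 26 (Tnfrsf11b, Tnfrsf25 and Edar). Tnfrsf26, a mouse decoy-type TNF receptor gene, rose from 17.2 ± 0.900 to 30.5 ± 2.42 FPKM (n = 3). Its libraries held 28.6, 29.6 and 33.2 FPKM in the knockdown and 17.6, 17.9 and 16.2 FPKM in WT, so the groups were far apart. The log2 fold change was 0.87 (SE 0.093, adjusted p = 0.0101), and 1 omission ended the call, that of WT replicate 2 (adjusted p = 0.0616). Tnfrsf26 lies beside its relatives Tnfrsf22 and Tnfrsf23 on chromosome 7, and reads shared between such copies would make single values uncertain. Tnfrsf23 was at 12 ± 0.852 and 9.87 ± 0.569 FPKM in knockdown and WT (log2 fold change 0.33, adjusted p = 0.0545), and Tnfrsf22 at 2.46 ± 0.193 and 1.88 ± 0.469 FPKM (0.44, adjusted p = 0.195).

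Tnfrsf11a encodes RANK, the receptor for the osteoclast factor RANKL. It was at 3.56, 3.75 and 3.10 FPKM in the knockdown and at 4.83, 6.16 and 7.36 FPKM in WT. It fell by 0.77 on the log2 scale (SE 0.156, adjusted p = 0.0284), and the call was kept in 1 of 6 fits that left out a library, the one without WT replicate 1. The receptors of TWEAK, APRIL, BAFF and 4-1BBL that were tested did not pass. Tnfrsf13b (TACI, which binds BAFF and APRIL) was at 7.45 ± 0.678 and 7.54 ± 1.02 FPKM in knockdown and WT (log2 fold change 0.04, 95% interval -0.27 to 0.35, adjusted p = 0.878). Tnfrsf12a (Fn14, the TWEAK receptor) was at 2.33 to 2.87 FPKM in the knockdown and at 1.6 to 1.77 FPKM in WT (0.66, adjusted p = 0.0524), and the 4-1BB gene Tnfrsf9 was near 0 with 0.144 and 0.127 FPKM. Further receptors whose mean reached 5 FPKM did not pass: Ltbr (-0.11), the death receptor gene Fas (-0.56), Tnfrsf14 (-0.60) and Tnfrsf21 (-0.22), with adjusted p from 0.127 to 0.388.

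**Figure D3:**
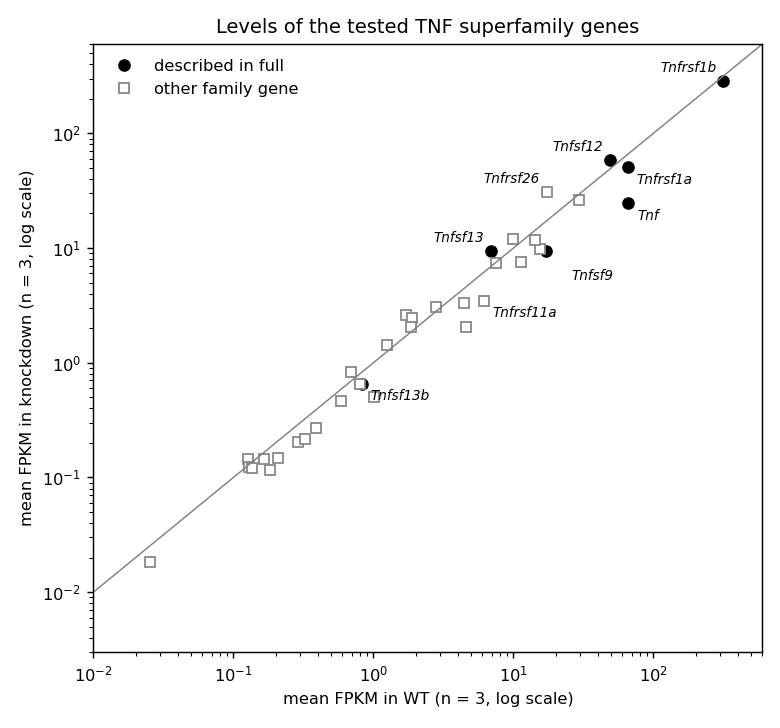
Mean FPKM in WT (x axis, log scale) against mean FPKM in the knockdown (y axis, log scale) for every tested TNF superfamily gene (n = 3 libraries a group); the line marks equal levels, and names are given for the 7 genes and for other genes that passed the test. Tnf lies clearly under the line and Tnfrsf26 over it, while Tnfrsf1b lies close to it at the top.

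Genes that control Tnf mRNA were lower in part. Of 16 tested genes for its stability and translation 5 fell (31.2%, beside 6.46% of all tested genes) and none rose, with a median log2 fold change of -0.24 beside 0.02 over all tested genes. Zfp36 encodes TTP, which binds AU-rich elements such as the one printed above and promotes decay of the mRNA. Zfp36 was at 35.2, 23.7 and 20.1 FPKM in the knockdown and at 83.5, 82.8 and 88.0 FPKM in WT. The groups were far apart, and the log2 fold change was -1.63 (SE 0.210, adjusted p = 0.0114; 0.0616 without WT replicate 2). Mapkapk2 encodes MK2, the kinase that restrains TTP and favours Tnf translation, and fell from 158 ± 13 to 103 ± 7.57 FPKM (-0.58, adjusted p = 0.0170). Tia1, a translational repressor gene, fell by 0.91 on the log2 scale, at a low level (0.715 ± 0.077 and 1.39 ± 0.318 FPKM in knockdown and WT). Zfp36l2, a relative of Zfp36, and Dcp2, an mRNA decapping enzyme gene, each fell by 0.32. The edgeR adjusted p of these genes ran from 0.0321 to 0.0477. Of the 6 fits that left out a library, Zfp36 kept its call in 5, Mapkapk2 in 3, Zfp36l2 and Dcp2 in 1 each and Tia1 in 0. The sixth by p, Mapkapk3, a relative of Mapkapk2, stood at a log2 fold change of 0.32 (adjusted p = 0.0895). Genes that favour and genes that oppose Tnf expression were thus both among those that fell. The count was 0 without WT replicate 2, 1 without knockdown replicate 1, 4 without WT replicate 1 and 2 without each of the other libraries.

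**Figure D4:**
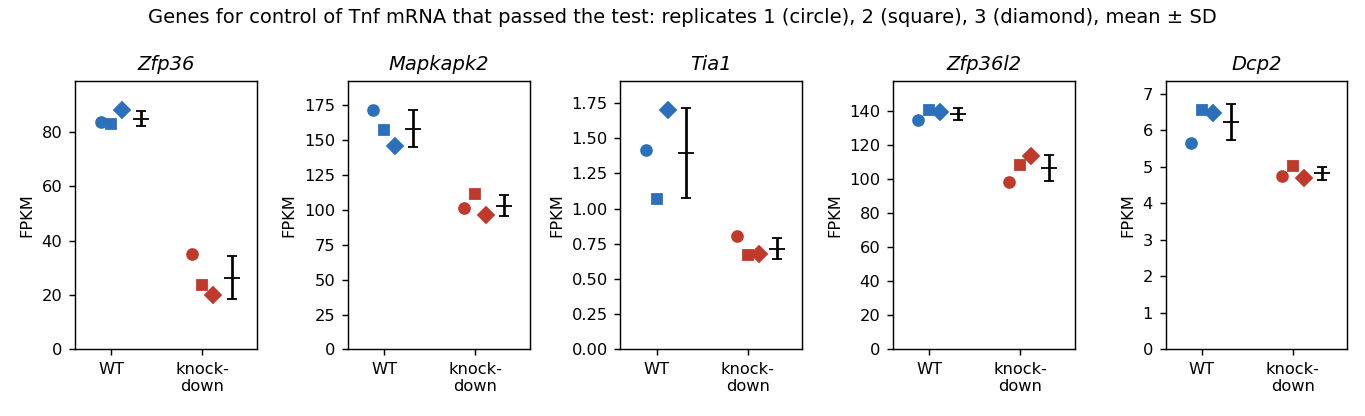
FPKM of the 5 genes for control of Tnf mRNA that passed the test, in 3 WT (blue) and 3 knockdown (red) libraries, with mean ± SD; each panel has its own axis from 0. All 3 knockdown libraries lie under all WT libraries in each panel, most clearly for Zfp36.

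Among proteases and partners that process the ligands, Sppl2a and Pcsk7 fell. Of 10 tested genes for shedding and cleavage these 2 fell (20.0%, beside 6.46% of all tested genes) and none rose (median log2 fold change -0.27). Sppl2a, whose protease clears the membrane stub left after TNF is shed, fell from 18.5 ± 1.04 to 13.6 ± 0.859 FPKM (-0.40, adjusted p = 0.0278), and the proprotein convertase gene Pcsk7 fell by 0.59 (adjusted p = 0.0263). The TNF sheddase gene Adam17 was at 35.3, 38.0 and 21.9 FPKM in the knockdown and at 47.4, 40.7 and 39.0 FPKM in WT. Knockdown replicate 3 was its lowest library, and its log2 fold change of -0.37 had an adjusted p of 0.267. Without that library the change in Adam17 was -0.17 (adjusted p = 0.431). The others named by p were Sppl2b (-0.37), Adam10 (-0.42) and Frmd8 (-0.18), with adjusted p from 0.195 to 0.321. Furin, which cuts the TWEAK, APRIL and BAFF precursors, overlapped between the groups (24.4 ± 2.45 and 25.4 ± 2.45 FPKM). The 2 calls were kept without WT replicate 1, 1 was kept without knockdown replicate 3 and none without each other library.

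Of 27 tested genes of the receptor complex and of death signalling 2 fell (7.41%, beside 6.46% of all tested genes), 0 rose and 25 did not pass (median -0.10). Traf1, an adaptor of TNF receptor 2, fell to 1.70 ± 0.301 FPKM against 3.86 ± 0.572 FPKM in WT (-1.13, SE 0.166, adjusted p = 0.0142). Tnip3, an NF-kB inhibitor gene, fell from 4.87 ± 0.404 to 1.80 ± 0.677 FPKM (-1.39, adjusted p = 0.0199). Tnip1 (0.37), the necroptosis kinase gene Ripk3 (-0.74), Traf5 (-0.38) and the caspase gene Casp8 (-0.20) came next by p, with adjusted p from 0.0628 to 0.119. The count that fell was 0 without WT replicate 2 and without knockdown replicate 1, 1 without WT replicate 3, 3 without WT replicate 1 and 2 without each other library.

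Of 28 tested genes that relay to NF-kB and the MAP kinases 5 fell (17.9%, beside 6.46% of all tested genes) and none rose. Their median log2 fold change was -0.23, also with Fosl1 at the floor described below. Nfkb1, which encodes the NF-kB subunit p50, fell from 9.34 ± 0.749 to 5.85 ± 0.447 FPKM (-0.63, SE 0.086, adjusted p = 0.0128). The stress kinase gene Map3k5 (-1.04), the p38 kinase gene Mapk14 (-0.50) and Fos (-1.95), a subunit of AP-1, fell too. Fos was at 65.1, 38.8 and 18.2 FPKM in the knockdown and at 143, 152 and 197 FPKM in WT, a wide spread in the knockdown that still left the groups apart (adjusted p = 0.0346). Fosl1 was at 0 in every knockdown library and at 11, 29 and 21 estimated counts in WT. Against an assumed floor of 3 counts over the group it was 19.4-fold lower. That figure rests on the floor and is no lower bound, since the counts are not a tally of reads. Fosl1 was near 0 in WT too, at 0.053 to 0.145 FPKM. Map2k6 (-1.06) was sixth by p, with an adjusted p of 0.0571. The count that fell was 0 without WT replicate 2, 1 without knockdown replicate 1, 4 without knockdown replicate 3 and 3 without each other library.

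Genes that TNF is known to induce through NF-kB moved in both directions. Of 19 tested genes 4 fell and 1 rose (26.3% called, beside 11.3% of all tested genes), with 14 not called (median -0.27). The chemokine genes Ccl7, Cxcl10 and Ccl2 fell by 3.37, 2.96 and 3.04 on the log2 scale, Nfkbiz, which encodes an atypical NF-kB regulator, fell by 0.55, and Bcl2a1b, a survival gene with near-identical copies, rose by 1.57 (adjusted p from 0.0120 to 0.0339). Ptgs2, the cyclooxygenase gene, was sixth by p with a log2 fold change of -1.64 (adjusted p = 0.0625). The numbers that rose and fell were 0 and 0 without WT replicate 2, 0 and 1 without knockdown replicate 1, 2 and 4 without WT replicate 1, and 1 and 2 without each other library.

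Marker genes of the labelled cell type and of other marrow cells were read in the same fit. All 13 macrophage markers were detected. Of these, 8 fell, among them Csf1r (the M-CSF receptor gene, -1.18) and Cd14 (-1.22), and Cd68 rose (0.63). The share called was 69.2%, beside 11.3% of all tested genes in either direction. The median log2 fold change of the 13 markers was -1.18. The summed level without Lyz2 was 1806 to 1986 FPKM in the knockdown and 1911 to 2267 FPKM in WT, most of it Cd68. Without Cd68 as well, the other 11 markers summed to 415 to 533 FPKM in the knockdown and 939 to 1329 FPKM in WT. That sum leaves out the 1 marker called higher, so the gap between the groups is partly set by that choice. The count of markers that fell was 0 without WT replicate 2 and 1 to 7 without each other library. T and NK cell markers, whose cells also make TNF, summed to 0.426 to 0.991 FPKM in the knockdown and 0.435 to 0.601 FPKM in WT. Of these 10 markers 3 were tested, none passed by edgeR (0 at an unadjusted p under 0.05) or DESeq2, and Cd3g was at 0 in every library. B cell markers summed to 1.11 to 5.59 and 5.80 to 8.28 FPKM, with 0 of 6 tested called (0 at an unadjusted p under 0.05, and 1 lower by DESeq2). Mast cell, basophil and eosinophil markers summed to 6.56 to 15.3 and 2.17 to 4.54 FPKM, with 2 of 8 higher (Prss34 and Prg2). That is 25.0% called, beside 11.3% of all tested genes.

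Of the monocyte markers 1 of 6 fell (Ccr2), with sums of 13.7 to 30.1 FPKM in the knockdown and 25.5 to 34.3 FPKM in WT. The share called was 16.7%, beside 11.3% of all tested genes in either direction. Neutrophil and granulocyte progenitor markers summed to 81.3 to 129 and 103 to 156 FPKM, with Mpo higher and Ltf lower among 10 tested (20.0% called). Erythroid and megakaryocyte markers summed to 40.6 to 150 and 51.6 to 56.1 FPKM, with Hba-a1 higher among 6 tested (16.7% called). None of 8 dendritic cell, 7 fibroblast and stroma and 4 osteoclast markers tested passed, with 1 of each list at an unadjusted p under 0.05 and 1 of each called by DESeq2. Their sums were 2.15 to 9.49, 2.25 to 6.97 and 52.8 to 101 FPKM in the knockdown and 4.71 to 6.77, 3.49 to 7.94 and 70.1 to 85.1 FPKM in WT. With 1 library left out, 0 to 3 markers were called in either direction in each list other than the macrophage list. The part of any of these cell types in the levels of the 7 genes was not tested.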

How the data were processed

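RNA sequencing of 3 Lamtor5 knockdown and 3 WT macrophage cultures was analysed from 1 deposited gene table (GRCm38, mm10, per the submitters' processing notes). A SMARTER mRNA-Seq kit was used, per the labels' protocols, and cutadapt 1.9 trimmed the adapters, per the file headers. The aligner, the counter, the annotation release and the strand setting were not given in the sources used here. Values deposited by the authors were an estimated count and an FPKM per gene and library. The counts are whole numbers that sum to 2.95 to 3.01 per read pair kept and pile up on 4 (16.4% of values from 1 to 30), so they are not a tally of reads, and no counting interval was made from them. The number of libraries limits the precision.

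Groups were compared with edgeR 4.0.16 in R 4.3.3, using filterByExpr (minimum count 10), TMM, quasi-likelihood test with group as the only term, Benjamini-Hochberg over 18164 genes. An SE is the log2 fold change divided by the square root of F. The fit was tested on simulated counts. The fit was repeated with each library left out, with replicate number as a blocking term, with counts divided by 4, without the count filter, with RLE size factors and with DESeq2 1.42.0. Limma 3.58.1 was run on log2(FPKM + 1) for genes averaging 1 FPKM or more, and again with a pseudocount of 0.1 or without that filter. Summing the overlapping genes, and DESeq2 and limma without WT replicate 2, were chosen after seeing the data.

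The 7 genes, the gene lists and the tests were chosen with earlier results of these data known. Named were the 7 genes, other family genes that passed or had a mean of at least 5 FPKM, up to 6 genes of each other list with the smallest p, and the 4 genes most like each of the 7 that passed. Other family genes below 5 FPKM, Furin and marker genes were named after their values were seen. Promoters came from RefSeq (GRCm38.p6), and 3′ untranslated regions and gene overlaps from GENCODE M21, taking for each gene the transcript with the longest coding sequence.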

Additional observations from a re-analysis of the deposited data

How the results depend on the processing

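The direction of Tnf, Tnfrsf1a, Tnfsf9, Tnfsf12, Tnfsf13 and Tnfsf13b was the same in every alternative that was run; Tnfsf13b has no value in the limma fits with a minimum mean of 1 FPKM. With 1 library left out, the log2 fold change ranged from -1.53 to -1.23 for Tnf, -0.36 to -0.31 for Tnfrsf1a, -0.94 to -0.57 for Tnfsf9, 0.24 to 0.36 for Tnfsf12, 0.20 to 0.68 for Tnfsf13 and -0.56 to -0.06 for Tnfsf13b. Tnfrsf1b ranged from -0.29 to 0.19 and changed sign without WT replicate 1 (0.19). Limma without WT replicate 2 gave -1.35 for Tnf (adjusted p = 0.0708) and -0.38 for Tnfrsf1a (adjusted p = 0.0920), while DESeq2 without it called both, at -1.37 and -0.36 (adjusted p = 7.07e-06 and 0.0360). With all libraries DESeq2 called Tnfsf9 (-0.82) as well. The number of the 7 genes called was 0 to 2 with 1 library left out, 3 with DESeq2 and 2 in 6 other settings with all libraries. Over all genes the number called was 3635 with DESeq2, 1205 without a count filter, 789 by limma without a filter, and 0 to 2334 with 1 library left out. With the replicate number as a block, 728 genes and 1 of the 7 (Tnf) were called, Tnfrsf1a had -0.33 (adjusted p = 0.0844), and the summed Tnfsf12 and Tnfsf13 locus lost its call at 0.41 (adjusted p = 0.0579), which DESeq2 kept at 0.39 (adjusted p = 0.00719). Whether the numbers pair the libraries cannot be told from these values, with 3 libraries a group. Deviations of same-numbered libraries from their group means correlated at 0.046, 0.036 and -0.011 across genes. Knockdown replicates 1 and 2 correlated best with their own number, and knockdown replicate 3 with WT replicate 2 (0.034). The cause of these changes was not tested. Tnfsf13b had the lowest level of the 7 genes, at 323 to 699 estimated counts per library.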

Other observations

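Tnfaip3, Nfkbia and Birc3 were singled out after their values were seen, and none passed the test. Tnfaip3, which encodes the ubiquitin-editing enzyme A20, was at 2.79, 3.73 and 7.93 FPKM in knockdown replicates 1 to 3 and at 3.38, 4.76 and 2.29 FPKM in WT replicates 1 to 3. Knockdown replicate 3, the library with the lowest Tnf and Tnfsf9 and the highest Tnfsf13 level, was the highest for Tnfaip3 (adjusted p = 0.462 between the groups). Nfkbia, which encodes the NF-kB inhibitor IkBα, was at 34.5 to 52.2 FPKM in the knockdown and at 56.9 to 82.3 FPKM in WT (log2 fold change -0.61, adjusted p = 0.0816). Birc3, which encodes a ubiquitin ligase of the TNF receptor complex, overlapped between the groups, with 9.40 to 11.7 and 9.64 to 16.5 FPKM.

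In WT, Tnfrsf1b, Fas, Tnfrsf14 and Tnfrsf21 were each highest in replicate 1, at 425, 16.6, 20.1 and 17.0 FPKM, while Tnf, Tnfsf9 and Tnfrsf11a were lowest there, at 51.6, 13.9 and 4.83 FPKM. These genes were singled out after their values were seen, and what set WT replicate 1 apart was not tested.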
